A study of Mus musculus with 25 samples.

Results

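Among 24358 mouse genes measured in sperm RNA, 63 were high in both FVB/N conditions and low in all 3 C57BL/6J conditions. They were chosen by their own values. A gene entered when its smaller FVB/N count was at least 10 and when it was at least 4-fold above the largest C57BL/6J count, after 1 was added to both. The estimate also had to be available in all 5 conditions, which held for 24287 genes, and symbols beginning with H2- were left out. Of the 15612 genes with at least 10 counts in both FVB/N conditions under these restrictions, the 63 were 0.404%. The strain difference of these genes is therefore a description of how they were selected, and it was not tested.

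Sperm of 14-week-old mice was collected from the cauda epididymis, and the RNA was read by all-RNA-seq, in which RNA ends are first made alike so that all types of RNA can enter a library. C57.CTL.F1 and FVB.CTL.F1 were F1 males of C57BL/6J and FVB/N mothers given corn oil. C57.D300.F1 and FVB.D300.F1 were F1 males of mothers given di-(2-ethylhexyl) phthalate (DEHP) in corn oil, by mouth, at 300 mg/kg/day from embryonic day 9 to 19. C57.D300.F2 were C57BL/6J males of the second generation, sired by exposed F1 males. No F2 vehicle condition was analysed here. The strains are inbred and differ over the whole genetic background, and their conditions also differ in the ways given below. Each condition combined 5 libraries into 1 normalised read count per gene, scaled between libraries and not divided by gene length. There is thus no spread between libraries and no p-value. The SD quoted below is that of the authors' quantification model, and it does not replace a spread between animals. The counts of all genes summed to between 6921688 and 8602900 per condition.

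The 10 libraries of the C57BL/6J F1 conditions came from an earlier library set, and the 15 of C57.D300.F2 and the FVB/N conditions were newly made. Against the C57BL/6J F1 conditions, strain thus cannot be told apart from library set. Against C57.D300.F2 it cannot be told apart from generation or, for FVB.CTL.F1, from DEHP lineage. The C57.D300.F2 count is one of the values that chose the genes, so their low counts there are part of the selection. Against C57.D300.F2 alone the rule found 90 genes, and against the earlier C57BL/6J conditions alone it found 137. Both groups hold the 63 genes by construction.

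Mature sperm carries little cytoplasm and is largely silent in transcription. RNA recovered with it comes from germ cells of the testis, from the epithelium of the epididymis, and from other cells that the swim-out medium takes along. Inbred strains differ in gene copies, in regulatory sequence and in the haplotype of the major histocompatibility complex (MHC), and such differences can alter the level of single genes. In a bulk sample of this kind, fewer cells of a type and less RNA per cell cannot be told apart.

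Sequences of small noncoding RNA genes among the 63 are shown first, because their counts rest on telling near-identical copies and overlapping genes apart. The largest ratio belonged to Rprl3, a copy of the gene for the RNA subunit of RNase P, the enzyme that trims the leader of transfer RNA precursors. Rprl3 lies at chr8:3803069-3803358 on the minus strand and Rprl2, another copy, at chr3:22251374-22251663 on the plus strand (GENCODE M21 on GRCm38). Both are written 5′ to 3′, and capitals mark the 23 of 290 bases at which they differ from each other.
Rprl3: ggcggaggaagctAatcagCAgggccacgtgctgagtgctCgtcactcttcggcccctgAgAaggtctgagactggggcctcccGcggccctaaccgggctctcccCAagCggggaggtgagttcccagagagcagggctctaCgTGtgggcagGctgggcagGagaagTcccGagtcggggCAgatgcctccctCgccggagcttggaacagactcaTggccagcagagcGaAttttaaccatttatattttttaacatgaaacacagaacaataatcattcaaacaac
Rprl2: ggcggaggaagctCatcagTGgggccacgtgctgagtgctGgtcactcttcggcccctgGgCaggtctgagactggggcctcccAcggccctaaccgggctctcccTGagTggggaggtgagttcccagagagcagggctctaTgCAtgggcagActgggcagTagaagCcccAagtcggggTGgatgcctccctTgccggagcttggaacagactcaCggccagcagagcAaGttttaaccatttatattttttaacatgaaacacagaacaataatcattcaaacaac
The identity of Rprl3 was 92.1% with Rprl2 over 290 aligned bases, 92.1% with Rprl1 over 290 bases and 86.6% with Rpph1, the principal RNase P RNA gene, over 284 bases.

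The only miRNA gene among the 63 was Mir8114, whose hairpin lies at chr1:153899926-153900036. Its mature sequence is at chr1:153899989-153900009 on the plus strand (RefSeq, GRCm38.p6), and capitals mark the seed, bases 2 to 8.
mmu-miR-8114: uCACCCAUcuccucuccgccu

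In what follows, runs of 5 counts give the C57BL/6J conditions (CTL.F1, then D300.F1, then D300.F2) before the FVB/N conditions (CTL.F1, then D300.F1). Rprl3 had 3.75, 9.63, 2.37, 841 and 1210 counts. Its smaller FVB/N count was 87.4-fold above its largest C57BL/6J count, and the model's SD of the FVB.CTL.F1 count was 206. Rprl2 had 2.00, 2.85, 2.00, 18.2 and 33.1 counts, at least 6.05-fold higher in FVB/N when the C57BL/6J counts were set to the floor of 3 counts per condition. Both copies thus had under 10 counts in every C57BL/6J condition and more in FVB/N.

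The principal gene had another pattern. Rpph1 had 12936, 10556, 6703, 4641 and 6719 counts, so its FVB/N counts lay below those of the earlier C57BL/6J conditions and around that of C57.D300.F2. Rprl1 reached only 5.68 counts, in FVB.D300.F1, and its C57BL/6J counts were all under 1. Rmrp, the RNA of the related enzyme RNase MRP, had 9913, 8579, 7944, 10828 and 17909 counts. Of the stretches of 30 bases in Rprl3, 83.5% occurred in no other GENCODE transcript, and 11.5% were shared with Rprl2. How the authors' counting divided reads between these copies was not tested.

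Mir8114 had 28.4, 7.37, 4.46, 360 and 519 counts. Its model SD was 327 and 952 in the FVB/N conditions, close to or above the count itself. The strain difference of 332 counts was smaller than its model SD of 358. The hairpin overlaps an exon of Glul on the same strand and of Teddm2 on the opposite strand, and none of its 30-base stretches was unique to it. Glul, which encodes glutamine synthetase, had 4589, 5554, 3331, 2241 and 4436 counts, and Teddm2 had 3.58, 4.48, 7.24, 4.04 and 119 counts. The count of Mir8114 followed neither of them, and it cannot be read as mature miR-8114.

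**Figure D1:**
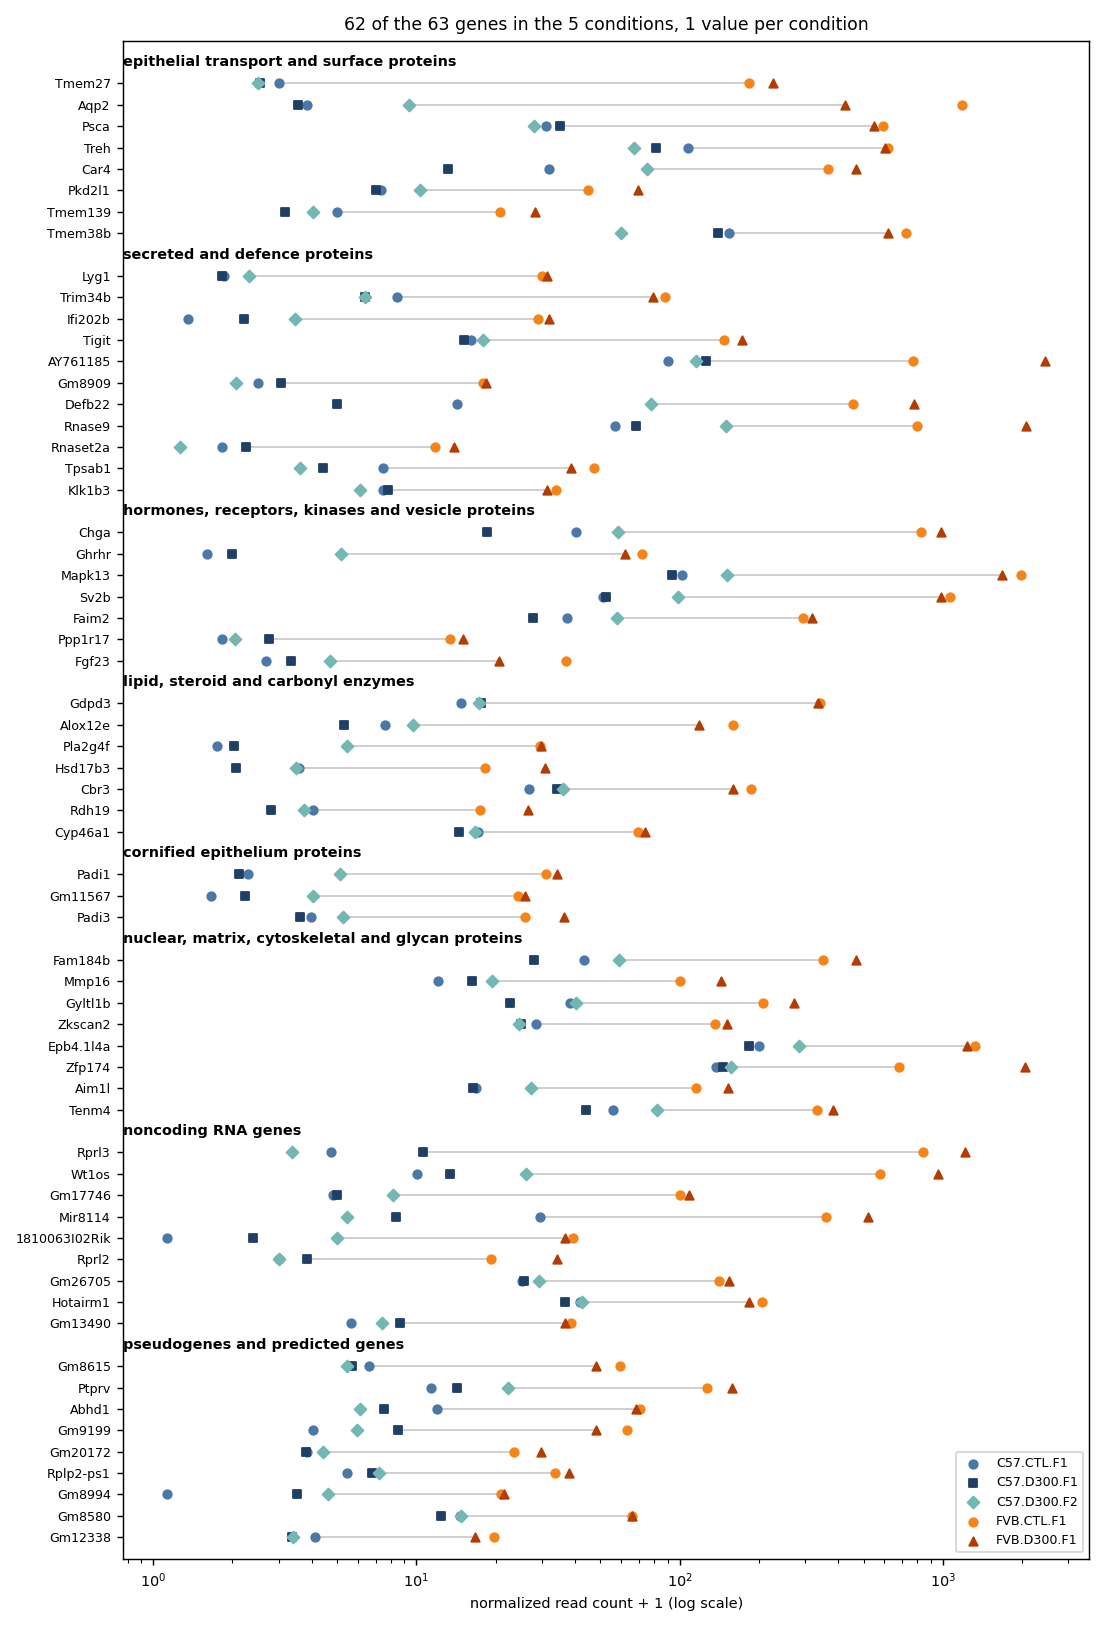
Normalised read counts (log axis, 1 added) of 62 of the 63 genes, grouped by role, with 1 point per condition; grey lines join the largest C57BL/6J to the smaller FVB/N count. For every gene the orange and brown FVB/N points lie to the right of the blue and green C57BL/6J points, as the rule demands, and the gap is widest for Rprl3, Tmem27 and Aqp2.

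On the log2 scale with 1 added, the smaller FVB/N count exceeded the largest C57BL/6J count by a median of 2.41 over the 63 genes, within a range of 2.01 to 6.31. The difference reached 3 log2 units in 18 genes, 4 in 5 genes and 5 in 3 genes. The smaller FVB/N count had a median of 99.4 and ran from 10.8 to 1682. In C57BL/6J, 8 genes were at or under 3 counts in all conditions, 32 had fewer than 10 counts at most, and 7 reached at least 100 counts. The summed counts of the 63 genes were 1538, 1425, 1982, 17523 and 22510. As CPM, scaled to the total of each condition, these sums were 179, 184, 286, 2315 and 2719. The distance between the strains in these sums is set by the rule. The strain difference was smaller than its model SD for Mir8114, Abhd1 and Gm12338.

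The genes nearest to the limits show how the rule drew its line. Just inside the fold limit were Tmem38b (4.02-fold with 1 added), Klk1b3 (4.02-fold) and Cyp46a1 (4.03-fold). Just outside were Wfdc2 (4.00-fold with 56.5 against 13.4 counts), Gm5122 (3.97-fold) and Cox4i2 (3.92-fold). Just inside the count limit were Rnaset2a, Ppp1r17 and Gm12338, with smaller FVB/N counts of 10.8, 12.4 and 15.7, and just outside were Lcn5, Olfr1445 and Gm8801, with 9.18, 7.86 and 6.81. The MHC class I gene H2-Bl, left out for its symbol, had 0.22, 2.55, 2.13, 62.9 and 86.0 counts.

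**Figure D2:**
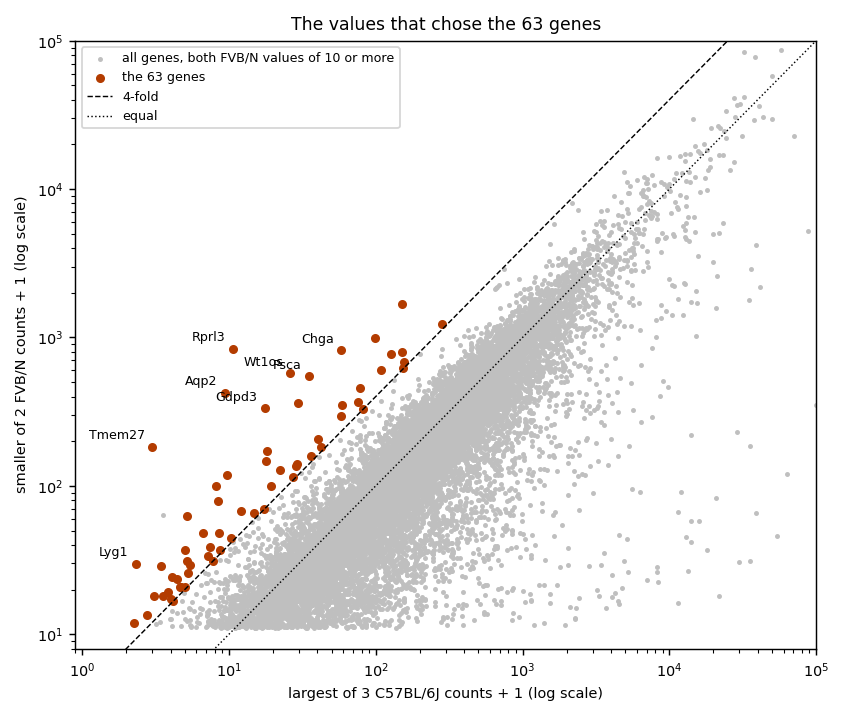
The smaller of the FVB/N counts against the largest of the C57BL/6J counts (log axes, 1 added) for all genes with at least 10 counts in both FVB/N conditions; the dashed line marks 4-fold and the dotted line equality. The 63 genes lie on or above the dashed line, and Rprl3, Tmem27 and Aqp2 lie farthest from it.

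Proteins of epithelial surfaces and transport were encoded by 9 of the genes. Aqp2, the vasopressin-regulated water channel of the renal collecting duct, had 2.84, 2.56, 8.39, 1181 and 424 counts. Its smaller FVB/N count was 50.5-fold above its largest C57BL/6J count. Tmem27, which encodes collectrin, a chaperone of amino acid transporters, had 2.00, 1.54, 1.49, 183 and 225 counts. All of its C57BL/6J counts were under the floor, which makes the FVB/N counts at least 61.0-fold higher.

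Psca, a Ly6-type protein anchored to the membrane, had 30.1, 34.1, 27.0, 591 and 548 counts, a 16.1-fold difference. Car4, a carbonic anhydrase of apical membranes, had 31.0, 12.2, 74.3, 366 and 468 counts. Treh, the disaccharidase trehalase, had 107, 80.3, 66.3, 618 and 604 counts. Tmem38b, a cation channel of the endoplasmic reticulum, had 154, 139, 59.0, 725 and 620 counts and lay on the edge of the rule. The cation channel gene Pkd2l1 and Tmem139 were lower, with 68.3 and 27.3 counts at most.

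Since several of these genes are known from the kidney, markers of other tissues were examined. Of 9 kidney tubule and podocyte genes, 5 stayed under 10 counts in every condition, among them Umod, Slc12a1 and Slc34a1, which define tubule segments. Scnn1g, Slc22a6 and Hsd11b2 reached 16.2, 11.3 and 12.9 counts at most. Nphs1, which encodes nephrin, was the exception with 26.5, 26.7, 28.0, 91.3 and 98.4 counts. The summed counts of the 9 genes were 53.6, 51.3, 76.0, 143 and 141, higher in both FVB/N conditions. Without Nphs1 they were 27.1, 24.6, 48.1, 52.2 and 43.0, and the strains overlapped. Genes of the urothelium had summed counts of 635, 918, 776, 380 and 415, and none of the 5 was higher in both FVB/N conditions than in all C57BL/6J conditions. These lists were put together after the 63 genes were known.

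Promoters of the leading protein-coding genes are shown because the study asked about binding sites of FOXA and of the androgen and estrogen receptors, and because these genes were all higher in FVB/N. Windows of 250 bases before to 50 after the start were taken from RefSeq (GRCm38.p6, which is of the C57BL/6J strain), written 5′ to 3′ on the gene's strand. Capitals mark the letters AGAACA (part of an androgen receptor site) and GGTCA (part of an estrogen receptor site) on either strand. The window of Aqp2 is chr15:99578806-99579105 on the plus strand, that of Tmem27 at its upstream start is chrX:164089937-164090236 on the plus strand, and that of Gdpd3, described below, is chr7:126766164-126766463 on the plus strand. Tmem27 has another window, chrX:164091939-164092238, which is not shown and holds 2 AGAACA and 1 GGTCA. The Tmem27 window shown holds no AGAACA, and both windows entered the counts below.
Aqp2: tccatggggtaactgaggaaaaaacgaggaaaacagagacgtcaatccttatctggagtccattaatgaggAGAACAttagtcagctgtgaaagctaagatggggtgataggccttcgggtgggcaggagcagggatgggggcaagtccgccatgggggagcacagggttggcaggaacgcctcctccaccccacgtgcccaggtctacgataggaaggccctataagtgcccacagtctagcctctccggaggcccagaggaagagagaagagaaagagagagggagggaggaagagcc
Tmem27: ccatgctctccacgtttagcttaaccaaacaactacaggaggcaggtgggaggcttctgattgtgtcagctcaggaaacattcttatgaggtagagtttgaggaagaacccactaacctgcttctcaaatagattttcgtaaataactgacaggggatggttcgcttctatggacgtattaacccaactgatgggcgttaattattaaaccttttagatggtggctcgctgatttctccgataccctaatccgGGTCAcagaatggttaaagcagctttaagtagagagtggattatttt
Gdpd3: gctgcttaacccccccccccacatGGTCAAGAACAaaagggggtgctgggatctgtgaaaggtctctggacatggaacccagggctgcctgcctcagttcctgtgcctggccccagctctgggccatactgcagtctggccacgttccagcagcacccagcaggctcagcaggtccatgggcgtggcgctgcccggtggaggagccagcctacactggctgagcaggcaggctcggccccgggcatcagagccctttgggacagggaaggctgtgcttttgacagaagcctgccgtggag
Promoter windows were given for 40 of the 63 genes. AGAACA was found for 7 of the 40, or 17.5%, and for 21.3% of the 27025 genes with windows. GGTCA was found for 15 of the 40, or 37.5%, and for 43.6% of all genes. The FOXA core TGTTTAC was found for 0 of the 40 and for 4.05% of all genes. None of the 40 had any of the motifs as an inverted repeat with 3 bases between (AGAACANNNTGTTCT, GGTCANNNTGACC, or the FOXA core repeated), and each of these was found for at most 0.074% of all genes. The shares among the 40 genes with windows were thus no higher than among all genes, in the C57BL/6J sequence.

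Secreted and defence proteins were encoded by 11 genes, several of them typical of the epididymis. Defb22, a beta-defensin that coats sperm, had 13.2, 3.99, 77.1, 457 and 778 counts. Rnase9, an epididymal member of the ribonuclease A family, had 55.9, 67.1, 149, 797 and 2065 counts. Both were higher in C57.D300.F2 than in the other C57BL/6J conditions and still clearly lower there than in either FVB/N condition. AY761185 had 89.3, 125, 115, 768 and 2456 counts, with even counts in C57BL/6J and the largest value in FVB.D300.F1.

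Neighbours of Defb22 and Rnase9 followed other patterns. Defb20, 5.73 kb from Defb22, had 16.6, 15.7, 19.4, 27.9 and 1598 counts, and Defb23, 21.05 kb away, had 1.10, 0.86, 21.8, 48.3 and 847 counts. Both had most of their counts in FVB.D300.F1 and under 50 in FVB.CTL.F1, whereas Defb22 was high in both. Rnase11, 6.79 kb from Rnase9, had 107, 99.0, 103, 375 and 398 counts, which separated the strains by less than the rule asked. Rnase10, 27.7 kb away, had 18.3, 27.5, 36.3, 25.3 and 766 counts. Rnase4, on the other hand, was lower in FVB/N, with 2007, 1682, 769, 362 and 383 counts.

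Immune genes followed. Ifi202b, an interferon-inducible p200 gene known to vary between inbred strains, had 0.35, 1.22, 2.47, 28.0 and 30.9 counts, at least 9.33-fold higher in FVB/N. Its relatives in the same cluster differed in direction. Ifi205, 29.2 kb away, was higher in both FVB/N conditions than in every C57BL/6J condition, with 28.8, 49.7, 55.4, 72.6 and 78.03 counts. Mndal had 91.3, 121, 62.6, 4.41 and 3.93 counts, Mnda had 18.3, 17.2, 23.9, 3.40 and 5.11, and Ifi203 had 208, 302, 316, 315 and 318. Trim34b, a TRIM gene of an antiviral cluster, had 7.44, 5.40, 5.36, 87.3 and 78.4 counts. Trim12c, 2.14 kb away, was also higher in both FVB/N conditions, with 221, 208, 254, 480 and 554 counts. Trim12a, 13.9 kb away, had 117, 121, 131, 9.77 and 10.3 counts, the reverse of Trim34b. Trim34a, which shares 71.6% of the 30-base stretches of Trim34b, had 97.1, 87.0, 90.4, 71.1 and 71.0 counts, slightly lower in FVB/N.

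Tigit, an inhibitory receptor of T and natural killer cells, had 15.1, 14.1, 16.96, 146 and 171 counts. Its partner receptor Cd226 had 19.3, 31.5, 22.3, 17.8 and 15.8 counts. The summed counts of 15 measured leukocyte markers were 33921, 42068, 50226, 36102 and 33968, most of them from Cd52. Without Cd52 they were 9060, 12630, 6711, 3337 and 3471, lower in both FVB/N conditions than in every C57BL/6J condition. Tpsab1, a mast cell tryptase that RefSeq classes as a transcribed pseudogene in the reference strain, had 6.45, 3.43, 2.62, 46.5 and 37.8 counts. Other mast cell genes did not share this pattern. Cpa3 and Tpsb2 were lower in both FVB/N conditions than in every C57BL/6J condition, while Mcpt4 had 112, 154, 51.4, 58.1 and 63.1 counts, with both FVB/N counts above C57.D300.F2, and Tpsg1 stayed under 3 counts. Cpa3 had 146, 179, 63.4, 33.1 and 44.1 counts, and Tpsb2 had 40.6, 48.5, 32.0, 20.97 and 20.4.

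Lyg1, a goose-type lysozyme gene, had 0.86, 0.82, 1.31, 28.9 and 30.2 counts, at least 9.65-fold higher in FVB/N. Gm8909, an MHC class I-like gene, had 1.4999, 2.06, 1.06, 16.97 and 17.5 counts. It lies 59.6 kb from H2-Bl and 22.4 kb from H2-T10, which had 30.5, 39.9, 30.4, 112 and 110 counts. Members of the same class elsewhere in the complex were lower in FVB/N, among them H2-T22 with 85.5, 99.2, 74.1, 5.65 and 2.65 counts. Klk1b3, a kallikrein, had 32.8 counts at most. Rnaset2a, a lysosomal ribonuclease gene, had 0.83, 1.26, 0.26, 10.8 and 12.9 counts, while Rnaset2b, which holds 85.8% of its stretches, had 4.33, 2.48, 3.40, 0.0058 and 0.0057. The Rnaset2 pair thus had opposite patterns, at very low counts. Reads of both strains were mapped to the C57BL/6J reference, and how they were divided between the pair was not tested.

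Hormone, receptor, kinase and vesicle genes included several of the most abundant counts of the group. Mapk13, which encodes the delta form of the p38 stress kinases, had 101, 92.6, 151, 1985 and 1682 counts. Mapk14, the p38 alpha gene, had 687, 668, 590, 729 and 706 counts, and neither Mapk11 nor Mapk12 differed by as much as 2-fold between the largest C57BL/6J and the smaller FVB/N count. Chga, which encodes chromogranin A of secretory granules, had 39.3, 17.6, 57.2, 823 and 987 counts. Sv2b, a synaptic vesicle glycoprotein, had 50.02, 51.6, 97.8, 1064 and 988 counts, and its relatives Sv2a and Sv2c stayed between 18.6 and 41.2 counts.

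Chga and Sv2b are used as markers of endocrine and nerve cells. Of Chgb, Scg2, Syp, Insm1 and Calca, none had a count above 9.82 in any condition. Insm1, a transcription factor of endocrine cells, had 1.33, 1.26, 0.13, 9.82 and 7.62 counts, higher in both FVB/N conditions. The sums over these 5 genes were 17.9, 19.0, 19.7, 27.1 and 20.4. The granin gene Scg5 had 47.8, 51.5, 64.4, 77.7 and 76.4 counts. Ghrhr, the receptor of growth hormone-releasing hormone, had 0.60, 0.99, 4.19, 71.2 and 61.2 counts, and Ghrh was under 3 counts throughout. Faim2, which inhibits death signals of the Fas receptor, had 36.4, 26.8, 56.9, 292 and 319 counts. Fgf23, a phosphate-regulating hormone, had 1.69, 2.33, 3.71, 35.9 and 19.7 counts, and its co-receptor gene Kl had 19.6, 20.9, 51.7, 39.2 and 71.8. Ppp1r17, an inhibitor of protein phosphatases, had 14.0 counts at most.

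Enzymes of lipids, steroids and carbonyls were encoded by 7 genes. Gdpd3, a lysophospholipase D, had 13.8, 16.5, 16.4, 339 and 335 counts, a 20.3-fold difference with little variation within either strain. Alox12e, an epidermal lipoxygenase, had 6.58, 4.31, 8.68, 158 and 117 counts. Alox15, 21.4 kb away from it, had 467, 480, 94.8, 56.1 and 120 counts, which separated the library sets and not the strains. Cbr3, a carbonyl reductase, had 25.9, 33.2, 35.2, 185 and 159 counts, and Cyp46a1, which hydroxylates cholesterol in brain, had 16.2, 13.5, 15.7, 68.3 and 73.1. Pla2g4f, a cytosolic phospholipase, had 0.75, 1.02, 4.43, 28.4 and 28.9 counts.

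Hsd17b3, the enzyme that makes testosterone from androstenedione in Leydig cells, had 2.57, 1.07, 2.48, 17.2 and 29.8 counts, at least 5.75-fold higher in FVB/N. Hsd17b2 and Hsd17b6, of the same family, were lower in FVB/N and in C57.D300.F2. Hsd17b2 had 288, 261, 19.9, 18.3 and 19.3 counts, and Hsd17b6 had 181, 202, 9.46, 4.29 and 1.61. Rdh19, a retinol dehydrogenase, had 3.04, 1.79, 2.76, 16.4 and 25.5 counts, beside 1976, 2265, 47.3, 21.97 and 11.6 for its neighbour Rdh7. The counts of Rdh7, Hsd17b2 and Hsd17b6 differed most between the C57BL/6J F1 conditions and C57.D300.F2, which differ in generation and library set. Those of Rdh7 and Hsd17b6 were also lower in both FVB/N conditions than in C57.D300.F2, while Hsd17b2 was nearly level there. Rdh19 and Hsd17b3 were higher in both FVB/N conditions than in every C57BL/6J condition.

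Padi1 and Padi3, which convert arginine to citrulline in skin and hair proteins, lie 2.33 kb apart on chromosome 4. Padi1 had 1.29, 1.12, 4.14, 30.1 and 33.1 counts, and Padi3 had 2.99, 2.63, 4.27, 25.0 and 35.3. Padi4, 11.1 kb from Padi3, was lower in FVB/N, with 98.6, 94.7, 29.2, 12.9 and 25.8 counts, while Padi2, 95.7 kb away, was higher, with 61.5, 78.6, 78.6, 113 and 203. Gm11567, a predicted gene, had 0.66, 1.22, 3.06, 23.4 and 24.8 counts. Of 7 measured genes of cornified epithelium, 6 stayed under 10 counts in every condition, among them Lor and Ivl, and Krt10 had 14.0, 16.9, 15.9, 29.6 and 27.6. The sums over this list were 25.9, 28.5, 30.2, 39.2 and 37.0, and without Krt10 they were 11.9, 11.6, 14.3, 9.56 and 9.39.

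Nuclear, matrix, cytoskeletal and glycan genes had the smallest strain differences, with a median of 2.20 log2 units and none above 2.57. Epb4.1l4a, a FERM-domain protein, had 200, 183, 282, 1322 and 1239 counts, the largest C57BL/6J count among the 63 genes. Zfp174, a zinc finger protein with a SCAN domain, had 137, 145, 155, 683 and 2055 counts. Zkscan2, of the same class, had 27.4, 24.1, 23.4, 136 and 151 counts, and the related Zkscan1 and Zkscan3 differed little between the strains. Tenm4, a teneurin of nerve cells, had 54.8, 43.3, 80.7, 330 and 380 counts, and Mmp16, a membrane-bound metalloproteinase, had 11.1, 15.3, 18.4, 99.2 and 143. Gyltl1b (now Large2), which glycosylates dystroglycan, had 37.3, 21.7, 39.5, 207 and 272 counts, beside 117, 124, 118, 111 and 126 for Large. Fam184b and Aim1l (now Crybg2) completed this set, with 350 and 115 counts in FVB.CTL.F1.

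Among long noncoding RNA genes, Wt1os, transcribed antisense to the Wilms tumour gene Wt1, had 9.09, 12.4, 25.1, 574 and 956 counts, a 22.9-fold difference. Wt1 had 141, 179, 232, 100 and 76.8 counts and was lower in FVB/N than in every C57BL/6J condition. Hotairm1, of the Hoxa cluster, had 40.8, 35.6, 41.6, 205 and 182 counts. Gm17746 had 3.83, 3.99, 7.13, 99.4 and 107 counts, and Gm26705 had 24.2, 24.7, 28.2, 140 and 154. The gene 1810063I02Rik had 0.13, 1.39, 3.98, 38.3 and 35.8 counts, and Gm13490 had 37.5 at most.

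The last set was made of pseudogenes, predicted genes and Abhd1, which overlaps Preb on the opposite strand. Pseudogenes were 12.7% of the 63 genes and 0.82% of the 15612 background genes, and symbols made of Gm and a number were 17.5% against 2.33%. Protein-coding genes were 73.0% against 91.9%. Ptprv, which RefSeq classes as a transcribed pseudogene, had 10.3, 13.3, 21.2, 126 and 157 counts. Gm8615 had 5.62, 4.70, 4.44, 58.6 and 47.1 counts, and Gm9199 had 3.06, 7.54, 4.96, 61.9 and 47.2. Abhd1 had 10.98, 6.53, 5.12, 69.7 and 67.2 counts, and Gm8580 had 13.6, 11.4, 13.7, 64.7 and 65.1. The remaining Rplp2-ps1, Gm20172, Gm8994 and Gm12338 had 37.0 counts at most.

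Counts of such genes can be shared with a parent gene or an overlapping gene. Of the 61 genes with a GENCODE transcript, 42 had at least 90% of their 30-base stretches to themselves and 8 had less than 50%. The 8 were Gm12338, Mir8114, Rnaset2a, Abhd1, Gm8580, Trim34b, Gm8615 and Gm8994. Gm12338 shares every stretch with Cox7c, which had 133, 129, 60.2, 140 and 106 counts. Abhd1 shares 81.9% with Preb on the opposite strand, which had 495, 423, 454, 579 and 567 counts. As ratios, the strain differences of these partners were small beside those of Gm12338 and Abhd1. Both partners had higher counts than Gm12338 and Abhd1 in every condition, so the ratios do not show how reads were shared. Gm8615 shares 69.9% with Gnpda1, which was lower in FVB/N, with 75.8, 69.6, 58.3, 32.0 and 34.1 counts. How the authors' counting divided reads between such pairs was not tested. Of the 63 genes, 13 also overlap another gene of the table on the opposite strand and 4 on the same strand. Sv2b was among them, overlapping 1500012K07Rik by 567 bases, and that gene had 21.1, 17.8, 30.9, 66.7 and 87.4 counts.

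Most relatives of the 63 genes did not share their pattern. In 36 gene families, 116 relatives had at least 10 counts in a condition. Both FVB/N counts were at least 2-fold above all C57BL/6J counts in 9 of the 116 (7.76%), where 2.23% of all genes met this, and the reverse held in 10 (8.62%), where 6.29% did. The 9 were Aqp6, Alox8, Klk1b11, Nphs1, Pla2g4c, Vipr1, Rnase11, Defb23 and the H2-Bl left out above. The median log2 ratio of the mean FVB/N to the mean C57BL/6J count was -0.08 over the relatives and -0.06 over all genes. The families were put together after the 63 genes were known.

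**Figure D3:**
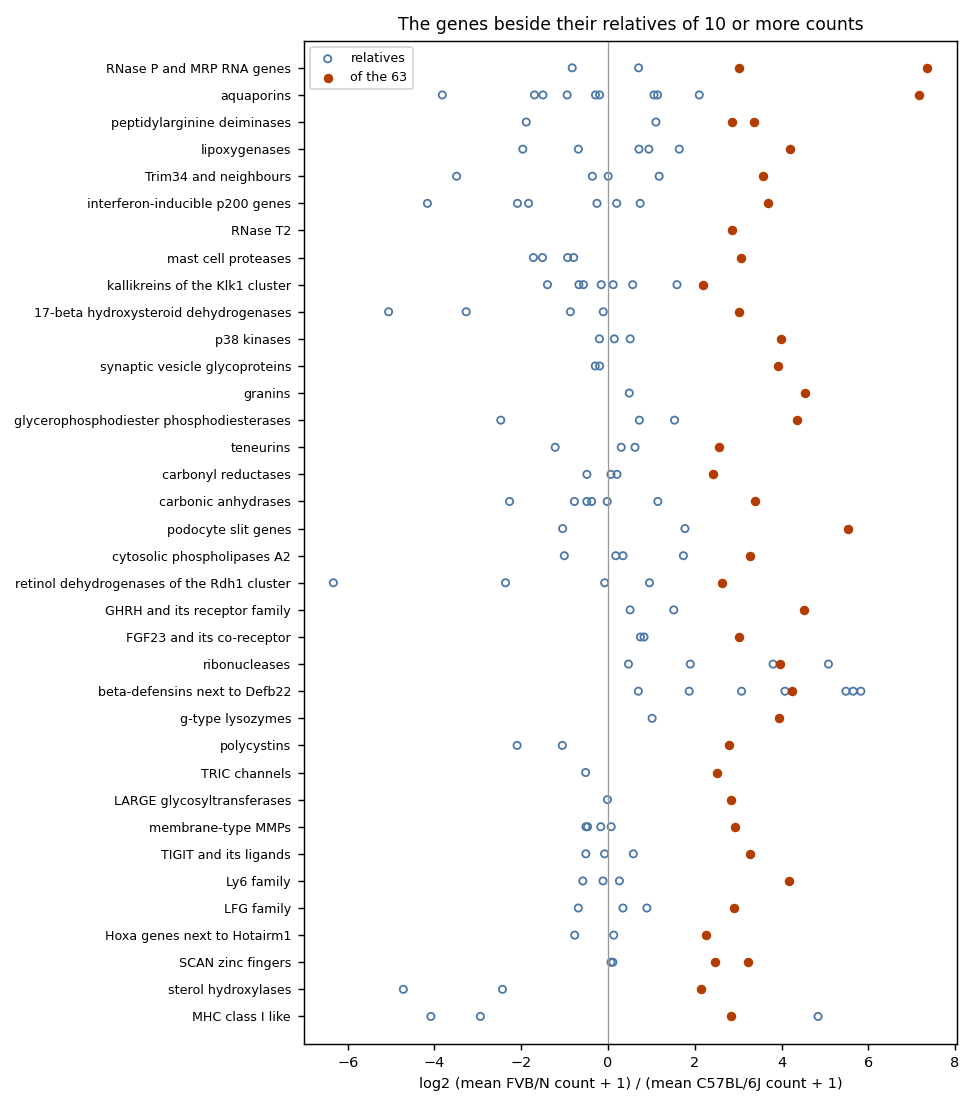
Log2 ratio of the mean FVB/N to the mean C57BL/6J count (1 added to both) for the genes (filled) and for their relatives with at least 10 counts in a condition (open), 1 line per family. Most open points scatter around 0, and those far to the right are ribonucleases, beta-defensins and an MHC class I gene, several of which were high in FVB.D300.F1 alone.

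The 63 genes were spread over the genome. Coordinates were found for all of them (58 by symbol, 5 by an older symbol), and they lay on 20 chromosomes. The largest share, 11.1%, was on chromosome 7, which holds 7.68% of the background genes. Another of the 63 lay within 500 kb of 4 genes, namely Padi1 with Padi3 and Aqp2 with Faim2, which lie 44.2 kb apart on chromosome 15. Whether this is more or fewer than in other sets of 63 genes was not tested. Ghrhr and Ppp1r17, on chromosome 6, followed at 629 kb. Of 276 other genes within 100 kb, 40 (14.5%) had a mean FVB/N count at least 1 log2 unit above the mean C57BL/6J count, against 7.07% of all genes with 10 counts. In the opposite direction there were 44 (15.9%), against 16.8% of all genes. The median over the neighbours was 0.08 log2 units, and that over all genes -0.06. The mean FVB/N count also takes in neighbours high in FVB.D300.F1 alone. In FVB.CTL.F1 and FVB.D300.F1, Defb20 had 27.9 and 1598 counts and Rnase10 had 25.3 and 766.

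Single loci differed in this respect. Around Aqp2, the water channel gene Aqp6 was also higher in FVB/N, with 2.19, 8.56, 9.94, 22.3 and 43.7 counts, and Aqp5 had 3.41, 1.93, 5.68, 6.64 and 10.9. Around Ifi202b and Trim34b, most neighbours that differed by at least 1 log2 unit were lower in FVB/N. Dopey2, 20.9 kb from Cbr3, had 676, 581, 687, 2258 and 2246 counts, higher in FVB/N by less than the rule asked. Ap1s2, 157 kb from Tmem27, had 62.0, 78.5, 71.7, 29.9 and 2330 counts, high in FVB.D300.F1 alone. At these loci some neighbours thus shared the direction of the gene and others reversed it.

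**Figure D4:**
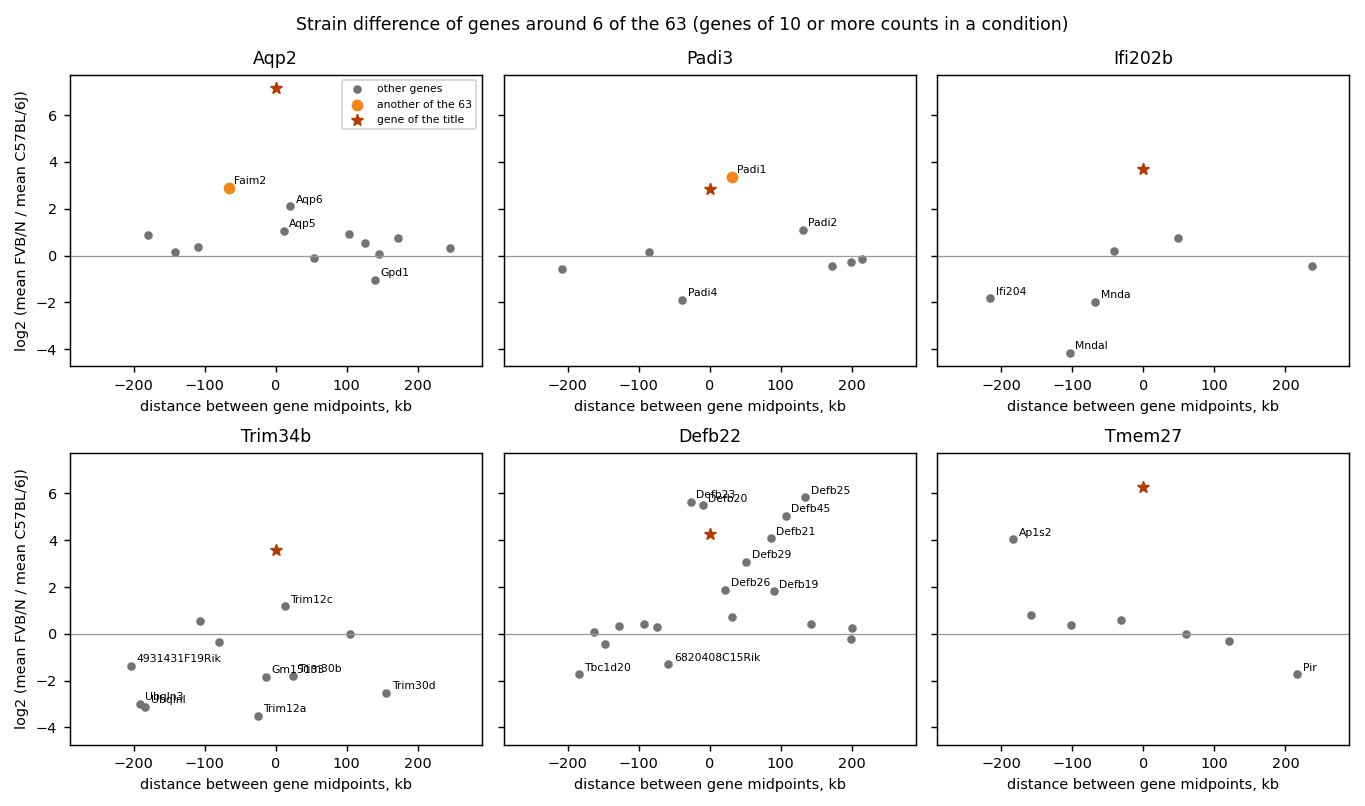
Log2 ratio of the mean FVB/N to the mean C57BL/6J count for genes of at least 10 counts within 200 kb of 6 of the genes, against the distance between gene midpoints in kb. Neighbours of Aqp2 and Defb22 lie mostly at or above 0, and those of Ifi202b and Trim34b reach -4.16 (Mndal) and -3.49 (Trim12a).

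Among the C57BL/6J conditions, the largest count was in C57.D300.F2 for 38 of the 63 genes, or 60.3%, where 38.9% of the background genes had their largest C57BL/6J count there. In 9 genes the C57.D300.F2 count was at least 2-fold above both other C57BL/6J counts, where 1.52% of the background genes met this. Among these were Aqp2, Car4, Defb22, Rnase9, Ghrhr, Padi1, Pla2g4f and 1810063I02Rik. The opposite held for 1, Tmem38b, and for 4.96% of the background. In Ghrhr, Padi1, Pla2g4f and 1810063I02Rik the C57.D300.F2 count was at most 4.43 and the other C57BL/6J counts were under the floor of 3. Their ratios are thus imprecise. The background genes were not matched for C57BL/6J count, and the rule itself used the C57BL/6J counts. C57.D300.F2 differs from the other C57BL/6J conditions in both generation and library set, which cannot be told apart.

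The rule did not use the ratio between the FVB/N conditions directly, but by asking for a high count in both it left out genes high in only 1 of them, such as Lcn5 and Defb20. The differences with prenatal DEHP are therefore partly limited by the selection and are given as a description. On the log2 scale, FVB.D300.F1 over FVB.CTL.F1 had a median of 0.13 and ran from -1.48 to 1.68. It lay within 0.5 of 0 in 48 genes (76.2%), against 89.3% of the background genes, and it was above 0 in 41 and below 0 in 22. With the totals made equal the median was 0.0013. With DEHP, 3 genes were higher by at least 1 log2 unit, where 2.16% of all genes compared were, and 1 was lower, where 0.62% were. At 2 log2 units 0 were higher, where 0.662% of genes were, and 0 lower, where 0.0182% were.

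The 3 genes that were higher were AY761185 by 1.68, Zfp174 by 1.59 and Rnase9 by 1.37 log2 units. Aqp2 was lower, by a log2 ratio of -1.48. For all 4 the difference exceeded its model SD, as it did for genes such as Wt1os (0.73), Defb22 (0.77), Rprl2 (0.83), Pkd2l1 (0.63) and Fgf23 (-0.84). Model SDs were high for some of these, with 1583 for AY761185, 1027 for Zfp174 and 1178 for Rnase9 in FVB.D300.F1. Relative to the count, these were 2.18, 1.76 and 2.01 times the value of the 200 genes nearest in count. The FVB.D300.F1 counts of the 3 genes thus had wider model errors than usual, and those of Aqp2 did not.

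Epididymal markers were also highest in FVB.D300.F1. The summed counts of 26 measured epididymis genes were 87463, 48384, 58657, 65827 and 136917. Without Sva and Pate4, which the seminal vesicle list also holds, they were 42252, 48353, 58586, 65785 and 136886, higher in both FVB/N conditions than in every C57BL/6J condition. Most of that sum in FVB.CTL.F1 came from Adam7 (37310 counts) and Ces5a (24703 counts). The other genes were mixed in FVB.CTL.F1, with Gpx5 and Cst8 below every C57BL/6J count and Rnase9 and Crisp4 above. The counts of all genes also summed higher in FVB.CTL.F1 than in C57.D300.F2, with 7568129 against 6921688. With only Adam7 left out of the list, the sums in these conditions were nearly level, 28517 and 28229. Of the 26, 8 were at or under 3 counts in FVB.CTL.F1 and 1 was in FVB.D300.F1, against 8 or 9 in the C57BL/6J conditions. Rnase9 is itself on that list. The part of epididymal RNA in the higher counts of Rnase9, Defb22 and AY761185 in FVB.D300.F1 was not tested.

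**Figure D5:**
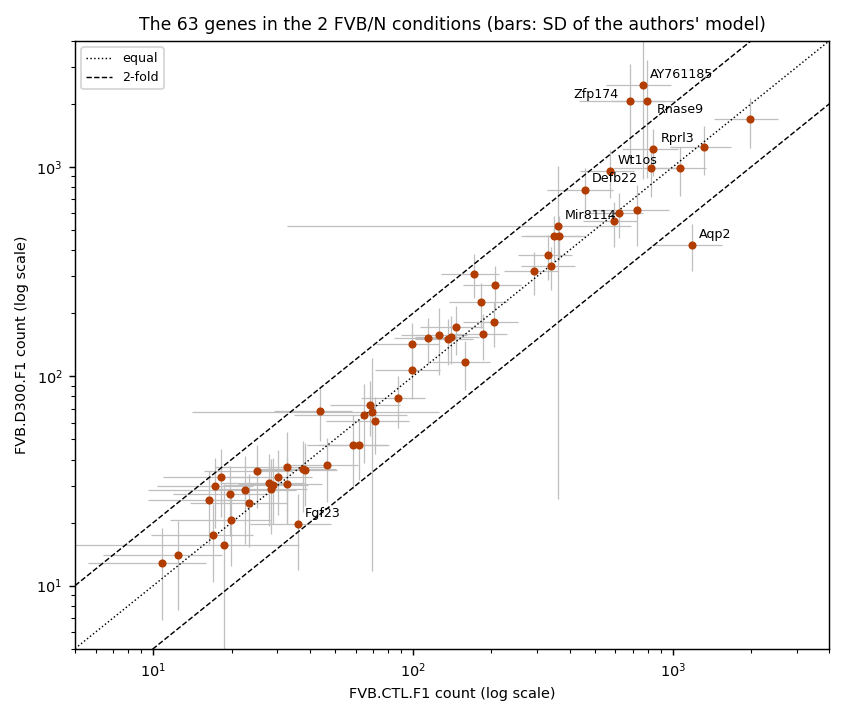
Counts of the 63 genes in FVB.D300.F1 against FVB.CTL.F1 (log axes); bars are the SD of the authors' model, shortened where they would reach 0, and dashed lines mark 2-fold. Most genes lie between the dashed lines, with AY761185, Zfp174 and Rnase9 above them and Aqp2 below, and the bars of Mir8114 span most of the plot.

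In C57BL/6J, 30 of the 63 genes reached 10 counts in an F1 condition, and 26 of them differed by less than 1 log2 unit between the pair. Of these, 0 were higher by 1 log2 unit with DEHP, where 1.09% of genes compared were, and 4 were lower, where 1.15% were. These were Mir8114 (-1.81), Defb22 (-1.51), Car4 (-1.28) and Chga (-1.11). Mir8114 had 28.4 and 7.37 counts, under its model SDs of 145 and 59.3. Defb22 had 13.2 and 3.99 counts, near the floor, with model SDs of 6.32 and 2.83. The model SDs were 11.5 and 5.72 for Car4, with 31.0 and 12.2 counts. For Chga, with 39.3 and 17.6 counts, they were 13.1 and 8.66. In FVB/N these 4 genes, in the same order, had log2 ratios of 0.53, 0.77, 0.36 and 0.26. A strain difference in these ratios was not tested, since each condition has 1 value.

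Markers of other cell types also differed between the conditions. Of 15 marker and gene lists, 4 of them put together after the 63 genes were known, 3 had summed counts in both FVB/N conditions above those of all C57BL/6J conditions, namely the kidney, cornified epithelium and neuroendocrine lists, and 6 had them below. Without the gene of the largest summed count in each list, 1 (neuroendocrine) had them above and 9 below. In the neuroendocrine list the gene left out was Syp, and all 5 genes were under 10 counts in every condition. Insm1 stayed in that sum, with 9.82 and 7.62 counts in FVB/N against at most 1.33 in C57BL/6J. Of the 5 genes, 2 were higher in both FVB/N conditions than in every C57BL/6J condition. The 20 testicular germ cell markers summed to 100658, 83213, 34039, 8015 and 9678 counts, and in 14 of them every C57BL/6J count was at least 2-fold above both FVB/N counts. The 20 liver markers summed to 360975, 286315, 11069, 5544 and 4513, and the 12 seminal vesicle markers to 265001, 1160, 1819, 2536 and 2328. The sums were 11440, 9861, 8267, 8509 and 8926 for prostate and coagulating gland, 2414, 2031, 3339, 1427 and 6977 for red cells, 55525, 61891, 64923, 50874 and 40056 for smooth muscle and connective tissue, and 2177, 1898, 2370, 1879 and 1487 for fat. Genes known to vary between strains, of which Ifi202b is one, summed to 12055, 10547, 5069, 3467 and 3465, and the steroid hormone and FOXA factors to 2096, 2599, 2738, 2081 and 2286. After scaling to equal totals 53 genes met the rule, 52 of them among the 63, and after median-of-ratios scaling 60 did, all among the 63. The part of these differences in the 63 genes was not tested.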

How the data were processed

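All-RNA-seq of cauda epididymal sperm was available for 25 libraries in 5 conditions of 5 libraries each. The authors depleted ribosomal RNA, clipped the RA3 adapter, discarded the shortest reads, mapped the rest to mm10 with TopHat and quantified genes with Cuffdiff (CASAVA 1.8.2 made the reads). The annotation release and the Cuffdiff options are not given in the sources used here. The deposited values are a signal, 1 normalised count per gene and condition, which Cuffdiff scaled between libraries, with a variance under its model as the other deposited column. Strand was used in mapping, and whether it was used in counting is not given. Reads that fit several genes can be divided between them.

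Log2 ratios were computed after 1 was added to each count. C57BL/6J counts under the floor of 3 counts were set to 3 for fold changes, and this floor covers counting error only. Background genes had at least 10 counts in both FVB/N conditions, and other comparisons took genes with at least 10 counts in a compared condition. The genes named were those with a smaller FVB/N count of at least 100, those with the 20 largest ratios, those in a gene list, those with the 5 largest differences with DEHP in either direction, those within 500 kb of another, the small RNA genes, and the 3 genes on either side of each limit. The other members, relatives and neighbours were named after their values were seen. The members and lists were chosen with earlier results of these data known, and the gene families, roles and the kidney, urothelium, cornified epithelium and neuroendocrine lists after the members' values were seen. Coordinates, gene classes, promoters and the miRNA are from RefSeq (GRCm38.p6), and overlaps, transcripts and 30-base stretches from GENCODE M21. With 1 value a condition there was no test, and differences were set beside the model SD only. The 71 genes with a failed estimate in a condition were left out. Alternatives were 3 scalings, added counts of 0.1 and 10, minimum counts of 30 and 100 and none, 8-fold and 2-fold limits, other C57BL/6J references, H2- genes kept, the model SD, and, added after seeing the data, only genes with mostly unique sequence and list sums without shared or dominant genes. The rule was also run on simulated counts with known changes, which checks only that it is applied correctly and not the genes found here. Python 3.11.15, numpy 2.4.6, pandas 2.3.3, Biopython 1.88 and matplotlib 3.10.9 were used. Some genes, including 1 of the 63, are not reported here.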

Additional observations from a re-analysis of the deposited data

How the results depend on the processing

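The number of genes was 63 as reported and moved by less than 1.5 times with equal totals (53), median-of-ratios (60) or upper quartile (65) scaling, with 0.1 counts added (73), with a minimum of 30 counts (47) or none (66), against C57.D300.F2 alone (90), with H2- genes kept (64), with the difference required to exceed its model SD (60), and, chosen after seeing the data, with mostly unique sequence (53). It moved further with 10 counts added (27), a minimum of 100 counts (31), an 8-fold limit (18), a 2-fold limit (374) and against the earlier C57BL/6J conditions alone (137). The number past the DEHP limit in FVB/N went from 0 at 2 log2 units to 4 at 1 log2 unit. The median log2 ratio with DEHP in FVB/N lay between 0.0013 and 0.23 under 8 alternatives. In C57BL/6J it was -0.04, and 0.07 with equal totals, a change of sign smaller than 0.5. Members within reach of another numbered 4 within 100 kb and 500 kb and 6 within 1 Mb. No paired analysis was possible because each condition has 1 value that combines 5 libraries, and leaving out replicates was not run for the same reason. Counts under 10 in C57BL/6J, found as the largest count of 32 genes, give imprecise ratios.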

Other observations

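Several of the genes had counts that were nearly equal in the FVB/N conditions. Among those with at least 100 counts in both, the difference with DEHP, as a log2 ratio, was -0.02 for Gdpd3, -0.03 for Treh, -0.09 for Epb4.1l4a, -0.11 for Psca and -0.11 for Sv2b.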
